A study of Mus musculus with 16 samples.

Results

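The 10 genes described here are those of recruited and lipid-associated macrophages, namely Trem2, Gpnmb, Cd9, Cd63, Spp1, Mmp12, Itgax, Ccr2, Lgals3 and Ly6c2. They were taken by symbol from a deposited table of 30463 genes, in which each of the 10 had 1 row. The study sequenced whole liver RNA of C57BL/6N mice, which were wild-type and 14 weeks old. At 2 weeks of age they were given either vehicle or DEN (diethylnitrosamine, which alkylates DNA and causes liver tumours), and from 6 weeks of age some ate a diet with 60% fat while the others had control diet. Either injection was combined with either diet, which makes 4 groups of 4 mice (16 in all), and strain, genotype and age are common to every group.

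The 16 columns of values per library carry codes that match no sample label, so no value per mouse or per group is given and the depth and spread of each sample are not shown. The values below are those of 1 comparison that the authors made and deposited, which gives for each gene a log2 fold change, the standard error (SE) of that change, a p-value and the mean of the normalized counts. The sides of that comparison are not named, so the text speaks of its positive side and its negative side. Cidea, a lipid droplet protein gene, had the widest change of all tested genes and lies on the positive side, at 8.20 ± 0.64 (log2, SE) by the authors' deposited table. The liver label was checked against Alb, the albumin gene, which had a mean normalized count of 1079857 by the authors' deposited table.

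Macrophages of the liver are of more than 1 origin. Resident Kupffer cells are seeded before birth and renew themselves, whereas circulating monocytes enter the liver through the chemokine receptor CCR2 and can become macrophages. In fatty liver and adipose tissue, recruited macrophages that meet lipid or dying cells take up a program known by the receptor TREM2, with lysosomal, matrix-degrading and lipid-handling genes. Several of the genes are not macrophage genes alone, since bile duct cells make osteopontin, dendritic cells carry the Itgax integrin chain, and many cell types express Cd9, Cd63 and Lgals3.

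Of the 10 genes, Mmp12 and Cd63 were higher on the positive side and the other 8 were not called. Mmp12, the macrophage metalloelastase, was 3.27-fold higher and Cd63, a tetraspanin of late endosomes and lysosomes, was 1.80-fold higher by the authors' deposited table. The receptor gene Trem2, after which the program is known, was at a log2 fold change of 0.16 ± 0.41 (SE) by the authors' deposited table. Calls are adjusted p-values below 0.05 by the authors' deposited table. At that rule 2 of 10 genes were called positive and 0 negative, beside 6.57% of all 16288 tested genes called in either direction, 3.67% positive and 2.90% negative. The median log2 fold change was 0.10 over the 10 genes and -0.0044 over all tested genes by the authors' deposited table, and 6 of the 10 were positive in sign and 4 negative. In whole liver, fewer cells of a type and less RNA per cell cannot be told apart.

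**Figure D1:**
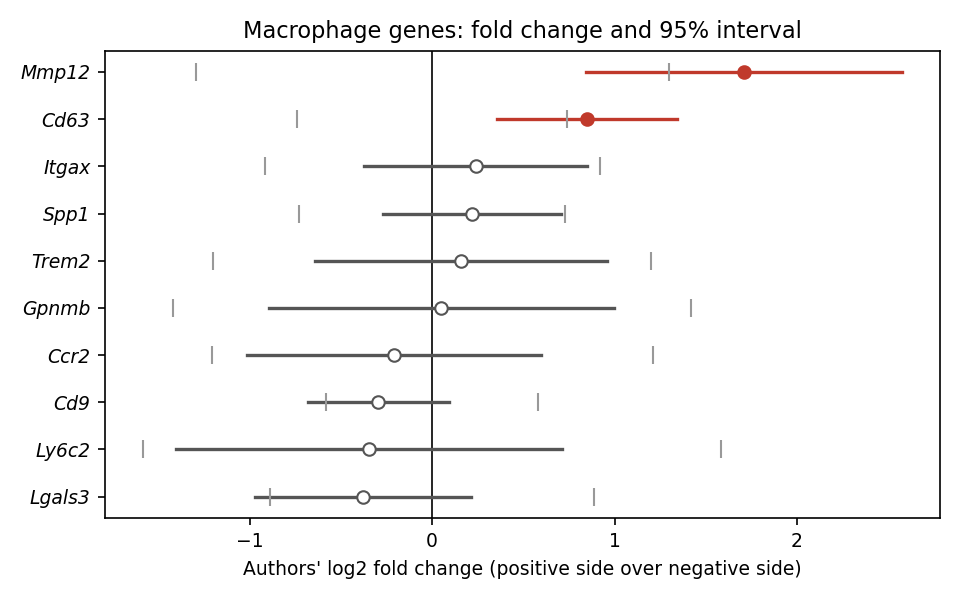
The authors' log2 fold change of each gene (point) with its 95% interval (line), where filled red points are called at an adjusted p below 0.05, open points are not, and grey ticks mark the log2 fold change a gene with that standard error needed to be called. The points of Mmp12 and Cd63 lie beyond their ticks, and the intervals of the other 8 genes cross 0.

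The levels of the genes spanned a wide range. Levels are compared per kilobase (kb) of the longest coding transcript, as mean normalized counts over the whole comparison with no spread. Spp1, which encodes the secreted ligand osteopontin, was the highest at 400.5 counts per kb, followed by Cd9, a surface tetraspanin, at 250.2 and Lgals3, the gene of the secreted lectin galectin-3, at 118.5, all from the authors' deposited table. Cd63 followed at 61.6 counts per kb, and Ly6c2, a surface marker of inflammatory monocytes, at 23.0 by the authors' deposited table. These 5 genes thus differed among themselves by more than an order of magnitude in level. Ccr2 stood at 17.4 counts per kb and Trem2 at 15.9 by the authors' deposited table. The lowest were Itgax, the CD11c integrin chain, at 5.71, Mmp12 at 4.18 and Gpnmb, a glycoprotein of lysosomes and the cell surface, at 3.73 counts per kb by the authors' deposited table. The top level was 107.5 times the bottom one with this length. Clec4f, a gene restricted to Kupffer cells, was at 646.0 counts per kb by the authors' deposited table, above each of the 10. With merged exons as the length, Ly6c2 ranked below Ccr2, at 6.89 beside 14.8 counts per kb, and Trem2 below Itgax, which was at 4.81 by the authors' deposited table. Mmp12 was then the lowest at 2.08, just under Gpnmb at 2.12, and Spp1 was the highest at 366.2 counts per kb by the authors' deposited table, a wider span.

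**Figure D2:**
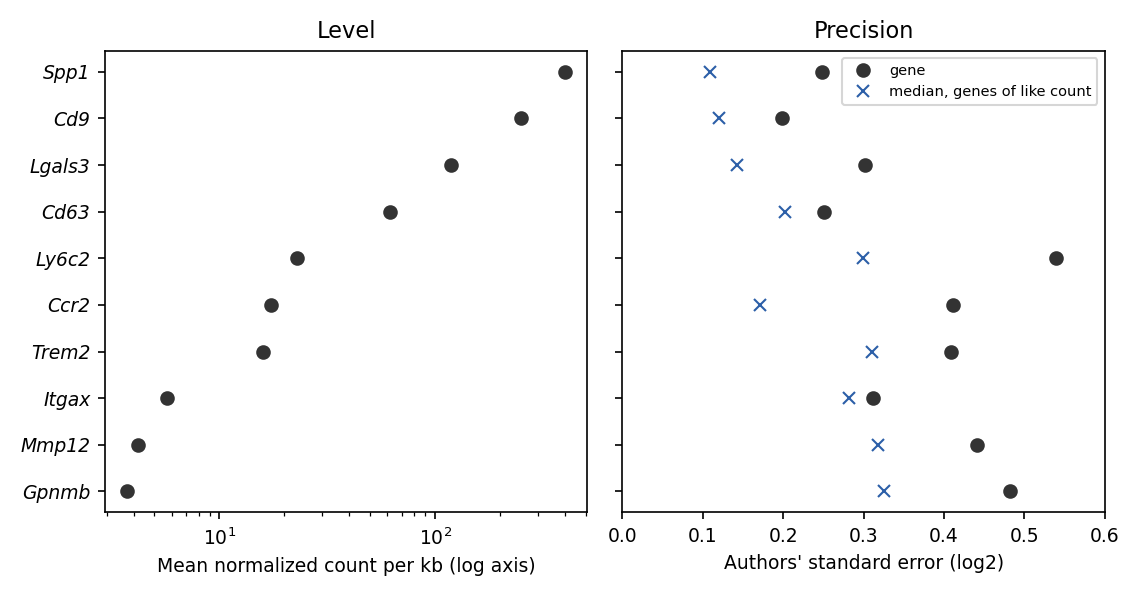
Left, the authors' mean normalized count per kb of the longest coding transcript on a log axis, from 3.73 for Gpnmb to 400.5 for Spp1. Right, the authors' standard error of the log2 fold change of each gene (filled point) and the median standard error of tested genes within 1.2-fold of its mean count (cross), which lies below the gene's own value for all 10 genes.

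The changes of these genes were measured less precisely than that of the median gene at the same count. Each of the 10 had a larger standard error than the median of tested genes within 1.2-fold of its mean normalized count, by 1.11-fold for Itgax to 2.40-fold for Ccr2 by the authors' deposited table. For Ccr2, 97.6% of 807 genes of like count had a smaller standard error, and for Ly6c2 95.5% of 649. This share was lowest for Itgax, at 65.0%, and for Cd63, at 70.1%. Mean normalized counts were low for 5 of the genes, which lay under 25 by the authors' deposited table, and the median of all tested genes was 163.9. With its standard error, Trem2 needed a 2.30-fold difference to be called, Ccr2 2.31-fold and Gpnmb 2.67-fold, whereas Spp1 needed 1.66-fold.

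Mmp12 showed the widest change of the 10. Mmp12 encodes a secreted metalloproteinase that degrades elastin and is made mainly by macrophages. The gene (ENSMUSG00000049723) is protein coding and lies on the plus strand of chromosome 9 from 7344381 to 7369499 in GRCm38. Its mean normalized count was 15.1 and its log2 fold change 1.71 ± 0.44 (SE), with an adjusted p of 0.00451, by the authors' deposited table. The 95% interval ran from 1.80-fold to 5.96-fold. By p it ranked 378th of the 16288 tested genes. No stretch of 50 bases of its longest coding transcript occurs in a transcript of another gene in GENCODE M21. The gene Mmp1b overlaps its end on the opposite strand. The call of the authors' deposited table was lost when every statistic was divided by the robust spread of all statistics (adjusted p = 0.301) and with Holm's adjustment (adjusted p = 1.00), and its adjusted p ranged from 0.00104 to 1.00 over the alternatives. The log2 fold change was 0.25 when shrunk towards 0 with a normal prior of variance 0.034. A prior that narrow draws any gene with such a standard error strongly towards 0.

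Cd63 showed the other positive call. CD63 is a tetraspanin that sits in the membranes of late endosomes, lysosomes and exosomes and is expressed by many cell types. Cd63 (ENSMUSG00000025351) is protein coding and lies on the plus strand of chromosome 10 from 128900989 to 128912822 in GRCm38. It had a mean normalized count of 68.3 and a log2 fold change of 0.85 ± 0.25 (SE, adjusted p = 0.0182) by the authors' deposited table. The 95% interval ran from 1.28-fold to 2.53-fold, and it ranked 649th of the tested genes by p. Of the 50-base stretches of its longest coding transcript, 36.5% also occur in Cd63-ps, a transcribed pseudogene copy, so its count is uncertain where the authors' counting dropped or split such reads. Cd63-ps itself had a mean normalized count of 0.826 and a log2 fold change of -0.45 ± 1.05 (SE) by the authors' deposited table, with no adjusted p. The Cd63 call of the authors' deposited table was lost with the statistic divided by its robust spread (adjusted p = 0.472), with Holm's adjustment (adjusted p = 1.00) and at a threshold of 0.01, and its adjusted p ranged from 0.0158 to 1.00 over the alternatives. Shrunk with the same narrow prior, its log2 fold change was 0.30.

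The bases before the starts of the called pair and of Trem2 are printed because Mmp12 and Cd63 moved the same way and Trem2 did not pass the test. Each sequence is the 250 bases before a RefSeq transcript start in GRCm38.p6, on the plus strand, at chr9:7344147-7344396 for Mmp12, chr10:128909095-128909344 for Cd63 and chr17:48346151-48346400 for Trem2. Mmp12 has another RefSeq start further into the gene. The Cd63 window lies inside the gene span given above, not before its first base. Capitals mark matches on either strand to GAGGAA, the core of the site of the myeloid factor PU.1, and to TGANTCA, the AP-1 site.
Mmp12: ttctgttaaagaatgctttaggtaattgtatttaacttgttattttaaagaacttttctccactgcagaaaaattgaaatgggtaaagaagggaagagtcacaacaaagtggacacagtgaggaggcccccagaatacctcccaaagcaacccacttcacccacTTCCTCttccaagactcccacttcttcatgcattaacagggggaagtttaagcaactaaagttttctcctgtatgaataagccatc
Cd63: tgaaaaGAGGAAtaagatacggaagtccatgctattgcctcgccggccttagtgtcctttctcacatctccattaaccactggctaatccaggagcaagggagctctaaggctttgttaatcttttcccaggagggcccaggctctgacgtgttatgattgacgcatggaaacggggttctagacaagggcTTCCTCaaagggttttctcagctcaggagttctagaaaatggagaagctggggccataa
Trem2: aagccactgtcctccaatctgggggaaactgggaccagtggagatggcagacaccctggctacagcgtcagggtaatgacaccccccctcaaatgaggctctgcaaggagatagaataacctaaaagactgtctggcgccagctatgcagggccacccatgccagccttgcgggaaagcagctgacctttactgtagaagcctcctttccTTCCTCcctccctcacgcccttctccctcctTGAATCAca
Mmp12 held 1 match to GAGGAA, which reads TTCCTC on the strand shown, and Cd63 held 2. Trem2 held 1 match to GAGGAA and 1 to TGANTCA, with no overlap between them. The window before the other Mmp12 start, at chr9:7347124-7347373, held 1 match to TGANTCA and none to GAGGAA. Of 32851 RefSeq promoter windows of the same length, 23.3% held GAGGAA and 6.75% held TGANTCA on either strand, so these matches are common and only describe the windows. CACGTG, the E-box that MiT/TFE factors of lysosomal genes read, was in 6.02% of all windows and the DR1 element of PPAR factors in 0.0335%, and neither was matched in the windows of the 10 genes.

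Trem2, Gpnmb and Cd9 of the lipid-associated program did not pass the test. TREM2 binds lipids, lipoproteins and apolipoprotein E and signals through the adaptor TYROBP. Trem2 (ENSMUSG00000023992, plus strand of chromosome 17, 48346401 to 48354147 in GRCm38) had a mean normalized count of 17.3 and an adjusted p of 0.891 by the authors' deposited table. Its 95% interval ran from 0.640-fold to 1.94-fold, so a rise of 2-fold or more lies outside it. Gpnmb (ENSMUSG00000029816, plus strand of chromosome 6, 49036546 to 49070929) was at a log2 fold change of 0.05 ± 0.48 (SE, adjusted p = 0.974) with a mean normalized count of 13.8 by the authors' deposited table. Its 95% interval, from 0.538-fold to 2.00-fold, was among the wider ones. Cd9 (ENSMUSG00000030342, minus strand of chromosome 6, 125460266 to 125494791) was at -0.29 ± 0.20 (log2, SE, adjusted p = 0.441) with a mean normalized count of 307.3 by the authors' deposited table. Cd9 thus had the smallest standard error of the 10. The sign of its value was opposite to that of Cd63, but its 95% interval ran from 0.623-fold to 1.07-fold. The difference between Cd9 and Cd63 was not tested. Reads of Cd9 can be shared, since 15.5% of its 50-base stretches also occur in the overlapping opposite-strand gene Gm26728 or in the pseudogene Cd9-ps, which had a mean normalized count of 0.226 by the authors' deposited table.

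The secreted ligand and lectin were also not called. Spp1 (ENSMUSG00000029304, plus strand of chromosome 5, 104435118 to 104441050 in GRCm38) had the highest mean normalized count of the 10, at 603.5, and a log2 fold change of 0.22 ± 0.25 (SE, adjusted p = 0.699) by the authors' deposited table. The 95% interval of Spp1 ran from 0.831-fold to 1.63-fold. Osteopontin is also made by bile duct epithelium. Of 8 tested duct markers 0 were called, with a median log2 fold change of 0.40 and 7 positive in sign by the authors' deposited table. The positive ones ran from the transcription factor gene Sox9 at 0.07 ± 0.23 to the keratin gene Krt7 at 0.65 ± 0.38 (log2, SE) by the authors' deposited table, and their part in the value of Spp1 was not tested. Lgals3 (ENSMUSG00000050335, plus strand of chromosome 14, 47367751 to 47386160) had a mean normalized count of 168.1 and a log2 fold change of -0.38 ± 0.30 (SE, adjusted p = 0.546) by the authors' deposited table. This was the lowest value of the 10, and its interval ran from 0.511-fold to 1.16-fold.

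The genes of recruitment did not pass the test either. Ccr2 (ENSMUSG00000049103, plus strand of chromosome 9, 124101950 to 124113557 in GRCm38), the receptor that draws monocytes out of marrow and into tissue, was at -0.21 ± 0.41 (log2, SE, adjusted p = 0.847) with a mean normalized count of 99.8 by the authors' deposited table. Itgax (ENSMUSG00000030789, plus strand of chromosome 7, 128129547 to 128150657), the alpha chain of the CD11c integrin of dendritic cells and some recruited macrophages, was at 0.24 ± 0.31 (log2, SE, adjusted p = 0.749) with a mean normalized count of 23.1 by the authors' deposited table. Of its 50-base stretches, 9.61% also occur in the neighbouring integrin gene Itgad, which had a mean normalized count of 0.302 by the authors' deposited table. Ly6c2 (ENSMUSG00000022584, minus strand of chromosome 15, 75108158 to 75111970) was at -0.35 ± 0.54 (log2, SE, adjusted p = 0.801) with a mean normalized count of 18.9 by the authors' deposited table. The 95% intervals of Ccr2, from 0.494-fold to 1.51-fold, and of Ly6c2, from 0.378-fold to 1.64-fold, were the only ones among the 8 uncalled genes that did not exclude a 2-fold fall. A 2-fold rise lay outside the interval of all 8, for Gpnmb only just. These intervals rest on the deposited standard errors, which were not widened by the robust spread of all statistics.

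Ly6c2 has a near-identical neighbour in Ly6c1, which endothelial cells also express, and its value is uncertain for that reason. The coding sequences of the longest coding transcripts, 396 bases each in GENCODE M21, are 97.7% identical, with 9 differing bases. Of the 50-base stretches of the Ly6c2 transcript, 33.0% occur in transcripts of other genes, Ly6c1 first among them. The first 150 coding bases of both genes are shown, because reads from such stretches can be assigned to either gene only where they cross the 6 differing bases, which are in capitals.
Ly6c2: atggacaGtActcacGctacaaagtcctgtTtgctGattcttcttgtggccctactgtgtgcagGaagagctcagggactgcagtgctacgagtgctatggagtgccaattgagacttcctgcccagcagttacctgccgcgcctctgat
Ly6c1: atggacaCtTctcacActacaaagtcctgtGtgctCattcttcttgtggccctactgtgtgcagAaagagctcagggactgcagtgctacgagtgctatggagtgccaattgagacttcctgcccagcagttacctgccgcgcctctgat
Ly6c1 had a mean normalized count of 2.71 and a log2 fold change of 0.08 ± 0.72 (SE) by the authors' deposited table, with no adjusted p because its count lies under the level at which adjusted values begin.

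**Figure D3:**
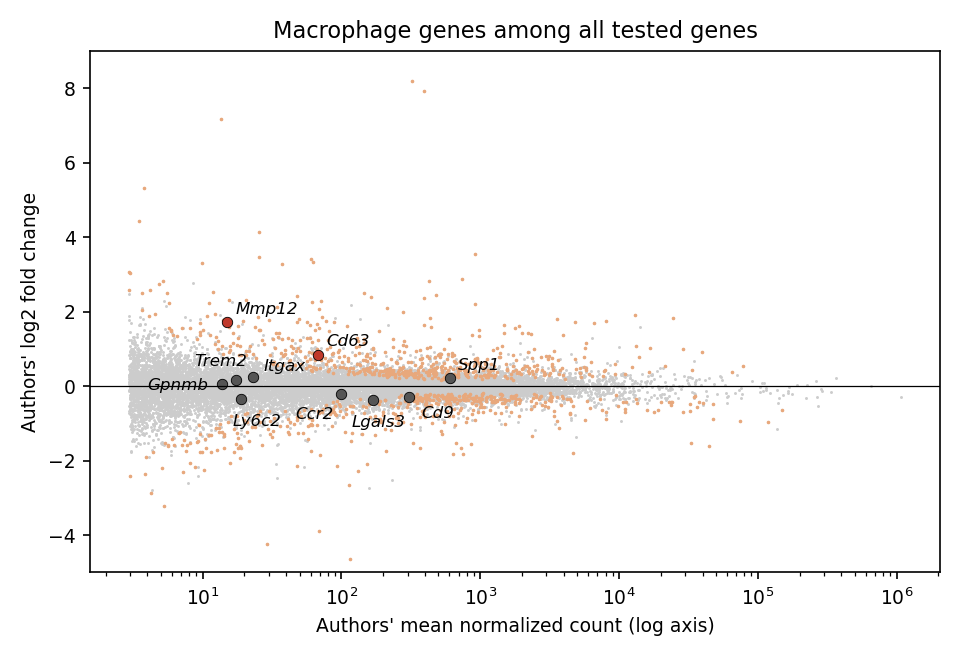
The authors' log2 fold change against their mean normalized count (log axis) for all 16288 tested genes (grey), those called at an adjusted p below 0.05 (orange) and the 10 genes (large points, red where called). Mmp12 and Cd63 lie above 0 at counts of 15.1 and 68.3, and the other 8 lie near 0. Uncalled genes of like count can lie as high as Cd63, such as Cxcl10 at 1.03 with a count of 70.9.

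Partners of these genes and markers of the cells that could carry them were grouped in 21 lists, from which the 10 genes were left out. Over the lists 263 genes were tested, of which 10 were called positive and 13 negative (8.75%), beside 6.57% of all tested genes. Among TREM2 adaptor and signalling genes, 0 of 14 were called positive and 1 negative, with a median log2 fold change of -0.34 and 13 of 14 negative in sign by the authors' deposited table. The called gene was Vav3, a guanine nucleotide exchange factor, at -0.95 ± 0.28 (log2, SE, adjusted p = 0.0189), and the sheddases Adam10 and Adam17 were at -0.18 ± 0.10 and -0.16 ± 0.10 by the authors' deposited table. The adaptor gene Tyrobp, named here after its value was seen, was at -0.21 ± 0.25 (log2, SE, adjusted p = 0.714) by the authors' deposited table.

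Lipid handling and lysosomal genes of lipid-associated macrophages, the longest list, held 5 of the 10 positive calls. Of 34 tested, 5 were called positive and 0 negative (14.7%), beside 3.67% of all tested genes called positive, with a median log2 fold change of -0.07 by the authors' deposited table. These were the fatty acid transporter gene Cd36 at 1.43 ± 0.26, the annexin genes Anxa2 at 1.08 ± 0.29 and Anxa5 at 0.55 ± 0.14, the lipid droplet coat gene Plin2 at 0.77 ± 0.25 and the cathepsin inhibitor gene Cstb at 0.28 ± 0.08 (log2, SE) by the authors' deposited table. Of the 34, 14 were positive and 20 negative in sign. Hepatocytes express Cd36 and Plin2 as well, and Apoe had a mean normalized count of 369269 by the authors' deposited table. Which cells gave the values of this list was not tested. The 2 genes of the list with the highest counts, the apolipoprotein gene Apoe and the lysosomal protease gene Ctsl, were at 0.23 ± 0.11 (adjusted p = 0.238) and -0.35 ± 0.16 (adjusted p = 0.199) by the authors' deposited table (log2, SE).

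Each protein family list of the 10 genes held at most 1 call, where 6.57% of all tested genes were called. The share was 5.26% for metalloproteinases and inhibitors and 4.55% for tetraspanins. It was 20.0% in each of the lists of galectins and of the Ly6 family, with 5 tested genes apiece. Of 19 tested matrix metalloproteinases and inhibitors other than Mmp12, 0 were called positive and 1 negative (median -0.14), the membrane-bound Mmp14 at -0.45 ± 0.14 (log2, SE, adjusted p = 0.0274), and Mmp19 was at -0.14 ± 0.16 by the authors' deposited table. Of 22 other tetraspanins 1 was called positive (median -0.06), Cd81 at 0.42 ± 0.08 (log2, SE), and the tetraspanin with the highest count, Tspan31, was at -0.08 ± 0.10 by the authors' deposited table. Of 5 other tested genes of galectins and their ligand 1 was called positive (median -0.0056), Lgals1 at 1.65 ± 0.28 (log2, SE), a 3.14-fold difference, while Lgals9 was at 0.07 ± 0.10 and Lgals8 at -0.0056 ± 0.092 by the authors' deposited table. Lgals1 and Lgals3 thus had opposite signs, and the difference between them was not tested. Of 5 tested genes of the Ly6 family 1 was called negative (median -0.08), Ly6e at -0.73 ± 0.23 (log2, SE, adjusted p = 0.0346), and Gpihbp1, which carries lipoprotein lipase across capillaries, was at -0.08 ± 0.21 by the authors' deposited table. Of the 3 other tested genes of the leukocyte beta2 integrins, 0 were called (median -0.54), with Itgb2, its beta chain, at -0.54 ± 0.27 (log2, SE, adjusted p = 0.247) and Itgal at -0.56 ± 0.32 by the authors' deposited table.

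Ligands and receptors of monocyte recruitment gave no call in 24 tested genes, with a median log2 fold change of -0.12 by the authors' deposited table. Of these, 10 were positive and 14 negative in sign. Among them, the macrophage growth factor receptor gene Csf1r was at -0.50 ± 0.20 (log2, SE, adjusted p = 0.113) and Itgb1 at -0.18 ± 0.08 (adjusted p = 0.181) by the authors' deposited table. The CCR2 ligand genes Ccl2 and Ccl7, named after their values were seen, were at 0.48 ± 0.56 (adjusted p = 0.708) and 1.87 ± 0.94 (adjusted p = 0.255) with mean normalized counts of 19.0 and 2.96 by the authors' deposited table (log2, SE). Of 7 tested osteopontin receptor genes, 1 was called negative (median -0.26), the fibronectin receptor chain Itga5 at -0.36 ± 0.12 (log2, SE, adjusted p = 0.0365), and the chains Itgb5 and Itgav were at -0.07 ± 0.17 and -0.12 ± 0.09 by the authors' deposited table.

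Markers of macrophages in general lay on the negative side where they were called, apart from Id3. Of 14 pan-macrophage and leukocyte markers 2 were called negative and 0 positive (median -0.43, 13 negative in sign), the phagocytosis receptor gene Mertk at -0.39 ± 0.12 and the pore-forming protein gene Mpeg1 at -0.54 ± 0.18 (log2, SE), while Lcp1 was at -0.13 ± 0.17 by the authors' deposited table. Of 17 Kupffer cell markers 2 were called negative and 1 positive (median -0.43), the lectin gene Fcna at -0.64 ± 0.19, the phosphatidylserine receptor gene Timd4 at -0.76 ± 0.26 and the transcriptional regulator gene Id3 at 0.74 ± 0.23 (log2, SE) by the authors' deposited table. Id3 is expressed by other liver cells too. The Kupffer list genes with the highest counts, the iron exporter gene Slc40a1 and the nuclear receptor gene Nr1h3, were at -0.35 ± 0.23 and 0.02 ± 0.09 (log2, SE) by the authors' deposited table. Of 19 monocyte markers 0 were called (median -0.28, 16 negative in sign), with Lyz2, the lysozyme gene, at -0.28 ± 0.32 and Ifitm3 at -0.07 ± 0.13 (log2, SE) by the authors' deposited table. Mmp12 and Cd63 were therefore positive beside macrophage and monocyte lists whose medians were negative by the authors' deposited table. The part of cell numbers in this was not tested.

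**Figure D4:**
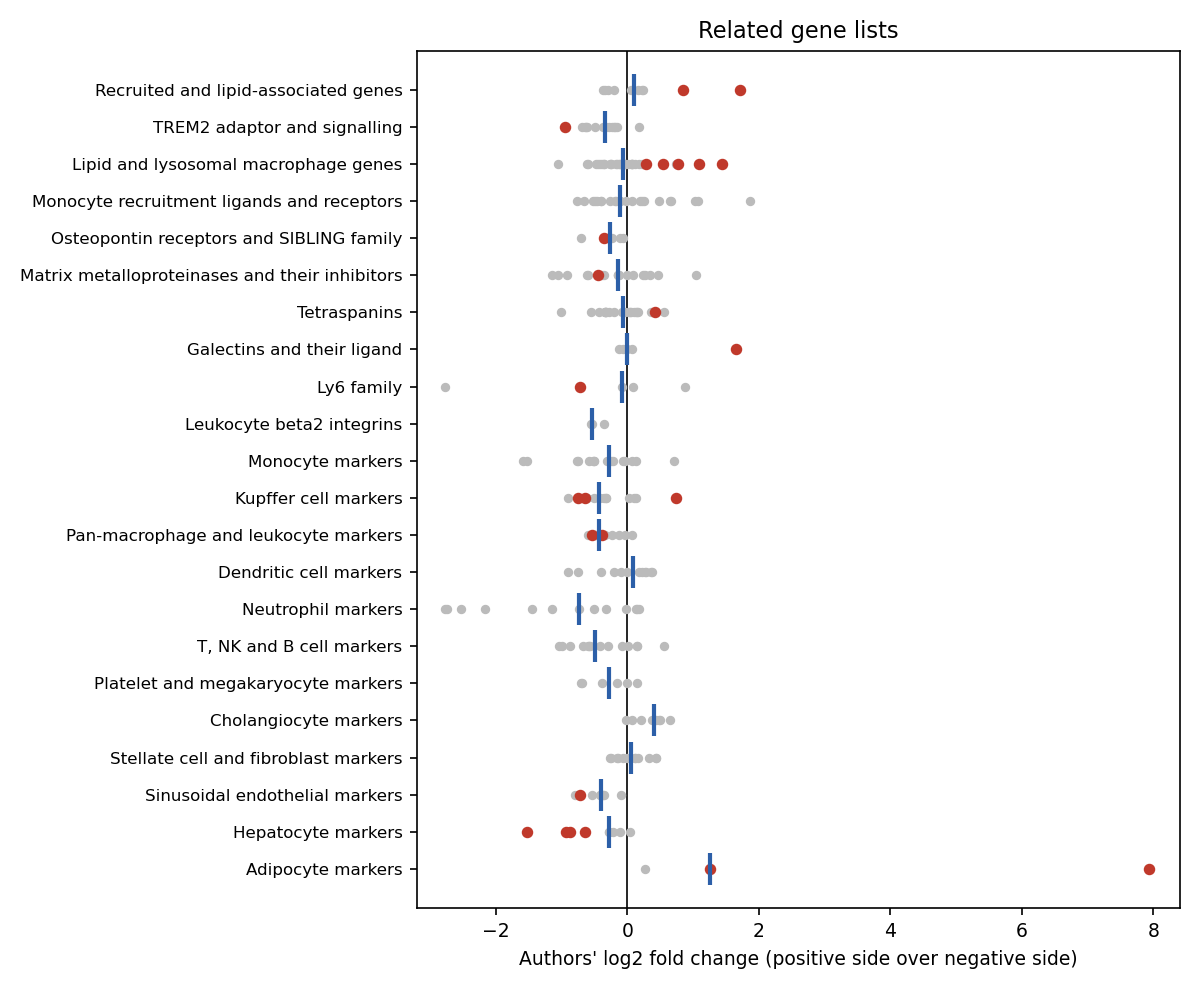
The authors' log2 fold change of every tested gene (points) of the 10 genes (top) and of the 21 related lists, red where called at an adjusted p below 0.05, with a blue tick at each median. The medians of the macrophage, monocyte and other leukocyte lists lie below 0, except that of dendritic cell markers at 0.09, and the Mmp12 and Cd63 points of the top line lie above 0.

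Markers of the other cells that express some of the 10 genes were as follows. Of 12 dendritic cell markers, which bear on Itgax, 0 were called (median 0.09), with 6 positive and 6 negative in sign by the authors' deposited table. The 2 with the highest counts, the antigen presentation genes Cd74 and H2-Ab1, were at 0.23 ± 0.20 and 0.29 ± 0.21 (log2, SE) by the authors' deposited table. Values ran from Flt3 at -0.91 ± 0.48 to Xcr1 at 0.37 ± 0.29 (log2, SE) by the authors' deposited table. The cholangiocyte markers given beside Spp1 bear on Cd9 too, with the keratin gene Krt19 at 0.50 ± 0.34 and the adhesion gene Epcam at 0.43 ± 0.26 (log2, SE) by the authors' deposited table. Of 6 platelet and megakaryocyte markers, which bear on Cd9 and Cd63, 0 were called (median -0.27), with the integrin chains Itgb3 at -0.71 ± 0.28 and Itga2b at -0.16 ± 0.29 (log2, SE) by the authors' deposited table. None of these lists held a called gene in the authors' adjusted p-values. Of 12 stellate cell and fibroblast markers 0 were called (median 0.05), with the matrix genes Dcn and Ecm1 at -0.14 ± 0.19 and -0.07 ± 0.24 (log2, SE) by the authors' deposited table. Of 10 sinusoidal endothelial markers 1 was called negative (median -0.40), the growth factor gene Bmp2 at -0.73 ± 0.23, with the scavenger receptor genes Stab1 at -0.39 ± 0.22 and Stab2 at -0.10 ± 0.17 (log2, SE) by the authors' deposited table. Of 9 hepatocyte markers 4 were called negative and 0 positive (44.4%, median -0.29), beside 6.57% of all tested genes called. These were Tat at -1.53 ± 0.23, Cps1 at -0.93 ± 0.15, Ass1 at -0.88 ± 0.18 and Ahsg at -0.64 ± 0.14 (log2, SE) by the authors' deposited table. The uncalled Alb was at -0.29 ± 0.21 and Apoa1 at 0.04 ± 0.20 (log2, SE) by the authors' deposited table. Of 3 tested adipocyte markers 2 were called positive, Cfd at 7.93 ± 0.69 and Pparg at 1.26 ± 0.25, and Adipor2 was at 0.26 ± 0.16 (log2, SE) by the authors' deposited table. The defining adipocyte genes Adipoq, Plin1 and Retn had mean normalized counts of 0.387, 0.439 and 0.558 by the authors' deposited table. Their part in the values of Cd63 and Lgals1 was not tested.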

How the data were processed

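The deposited table holds 1 row per gene of liver RNA sequencing. Per the labels' protocols, Trizol was used for extraction and a kit for stranded mRNA for the libraries. The submitters' processing notes list FastQC, Trimmomatic, HISAT2, HTSeq 0.11.1 and the build GRCm38, with no role or order. No setting for strand in the counting is given there.

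Per the file headers, the authors' mean normalized count is a signal that is never negative, the log2 fold change and its standard error are on the log2 scale, and the statistic is a score. The deposited p-value and adjusted p-value follow from it. The statistic was checked to be the fold change over its standard error, the p-value its 2-sided normal p, and the adjusted one that of Benjamini and Hochberg over the 16288 genes whose mean normalized count reaches 2.949. The sources used here give neither the tool and model behind the comparison nor its sides. The 16 columns per library match no label and were not used, so depth per sample is not shown and there was no test between groups beyond the authors' own.

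Intervals are 95% normal intervals from the deposited standard errors, without the rescaling used as an alternative. Genes were matched by Ensembl identifier to GENCODE M21 (99.8% of genes), and promoters were taken from RefSeq on GRCm38.p6, where each of the 10 symbols matched. The 50-base stretches were compared on both strands with all GENCODE M21 transcripts. Python 3.11.15, numpy 2.4.6, pandas 2.3.3 and scipy 1.17.1 were used, and the steps over all genes were tested on simulated data. The 10 genes and the lists were chosen with earlier results of these data known. Genes named in the text are the 10, every called gene of a list, the 2 tested genes of each list with the highest mean normalized count, Ly6c1 and Cidea. A few others are named as partners or defining markers, and some that the rule names are given by their list's count alone. Alternatives were other thresholds, count minimums and adjustments, a rescaled statistic, a trend on GC content, length and level removed, and shrunken fold changes.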

Additional observations from a re-analysis of the deposited data

How the results depend on the processing

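Of the 10 genes, 2 were called, Mmp12 and Cd63. The number was 1 (Mmp12) at a threshold of 0.01. It was 0 with Holm's adjustment, where both reached an adjusted p of 1.00, and 0 after every statistic was divided by the robust spread of all statistics (1.44), although 2 had an unadjusted p below 0.05 as deposited. When mean normalized counts had to reach 100 it was 0, because Mmp12, Cd63 and 5 more of the 10 lie below that count and only 3 were tested. With that minimum, 9.09% of all genes tested were called. Genes of the related lists called numbered 23 of 263 tested. They were 11 at a threshold of 0.01, 8 with Holm's adjustment and 6 with the rescaled statistic. With adjustment over every gene with a p-value they were 15 of 301. Over all genes the share called was 6.57%, and 3.01%, 1.14%, 0.872% and 2.52% at these settings in turn. The rescaling left 142 of 1070 calls over all genes, and Holm's adjustment 185. The cause was not tested. Shrinkage with a normal prior of variance 0.034, which is narrow beside their standard errors, took Mmp12 to 0.25 and Cd63 to 0.30 on the log2 scale. Removing the trend on GC content, length and level kept both calls, with adjusted p-values of 0.00104 for Mmp12 and 0.0400 for Cd63 (ranges over the alternatives 0.00104 to 1.00 and 0.0158 to 1.00).

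No paired analysis was possible because the columns per library match no sample label, and leaving out single replicates was not run for the same reason. Low counts limit Trem2, Gpnmb, Mmp12, Ly6c2 and Itgax, and near-identical copies limit Cd63 and Ly6c2.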

Other observations

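Genes of other infiltrating cells were looked at beside the 10 genes. Of 13 neutrophil markers 0 were called, although the median log2 fold change was -0.74 with 10 negative in sign, and the standard errors were wide, as for the calprotectin subunit gene S100a9 at -0.33 ± 0.77 and Lcn2, which hepatocytes also make, at 0.17 ± 0.51 (log2, SE) by the authors' deposited table. Of 14 T, NK and B cell markers 0 were called (median -0.49), with the granzyme gene Gzma at -1.05 ± 0.41 (adjusted p = 0.106) and Cd4 at -0.08 ± 0.33 (log2, SE) by the authors' deposited table.

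Chromosomal neighbours of the 10 genes were looked at as well. Of 86 tested genes within 250 kb of the 10 genes, 1 was called positive and 2 negative by the authors' deposited table, where 6.57% of all tested genes were called. These were 2010315B03Rik near Ccr2, the mitotic gene Dlgap5 near Lgals3 and Ly6e near Ly6c2. Of the 5 tested neighbours of Mmp12 and the 18 of Cd63, 0 were called, with median log2 fold changes of -0.52 and -0.03 by the authors' deposited table. With 6.57% of all tested genes called, these neighbours are too few to show whether they share the calls of Mmp12 and Cd63. The window was chosen after the data were seen.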
